A study of Pyrus communis with 12 samples.

Results

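In a small set of pear genes followed during on-tree maturation, every library of the harvesting stages H3 and H4 lay beyond every library of H1 and H2, with smaller differences between the stages on either side of this step. Of 45217 genes in the table, 25 met this pattern as a step up and 23 as a step down. A gene was taken when the 6 libraries of H3 and H4 were all at least 1.3 times the highest of the 6 libraries of H1 and H2, or all at most the same factor below the lowest of them. In addition, the means of H1 and H2 had to lie within 1.2-fold, the means of H3 and H4 within 1.4-fold, and the higher side had to average at least 2 CPM (the counts of a gene scaled to a library total of 1000000). The measured values of all 12 libraries therefore chose the genes, and their levels in H1 to H4 are given as a description. Calls of a fit over all genes are quoted for them only as counts, and nothing is read from these.

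The libraries came from the flesh of European pear (Pyrus communis) of cultivar 'Abate Fetel', which the study took from peeled, unstored fruit. There were 4 harvesting stages, H1, H2, H3 and H4, taken in harvest weeks 1, 2, 3 and 4 of the labels, with 3 biological replicates each. The study collected them to follow transcription during on-tree maturation, and its methods give a longer interval between H2 and H3 than on either side of it. All fruit were untreated and of 1 cultivar. At each stage the study kept fruit of the most frequent class of a chlorophyll absorbance index, and this class differed between the stages. Stage, harvest date, this class and orchard conditions of that date cannot be told apart. Libraries held 7776419 to 10675582 counts, and a count of 3 corresponded to 0.281 to 0.386 CPM.

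Pear is a climacteric fruit. On the tree, its flesh loses firmness, converts starch to sugar and becomes competent to produce ethylene and to respond to it. Ethylene and auxin signalling, cell wall enzymes and the enzymes of aroma synthesis are the classes of genes most often followed through these weeks. None of the step genes carries a name in the count table, in the study's text or in its primer list, and none of their identifiers matched the RefSeq gene table used here. The study pairs many of them with RefSeq transcript accessions but with no name, and these accessions did not occur in that gene table either. They are therefore given by identifier, with no function or sequence.

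Only 43 of the 48 genes showed a step in every library. These were 24 genes with a step up and 19 genes with a step down, and the values that follow are for them. The other 5 genes, 1 in the upward and 4 in the downward set, met the inequality because all libraries of the lower side and some of the higher side held no count at all. PCP019391 had 19.0 CPM in H3 replicate 1 and 16.1 CPM in H4 replicate 3, and 0 CPM in the other 4 late libraries and in all 6 early ones. PCP038104 had 0 CPM in all 6 late libraries, 0, 10.8 and 12.5 CPM in H1, and 12.1, 0 and 14.0 CPM in H2. The remaining 3 downward genes of this kind had counts in 2 early libraries each and in no late library. These genes alternate between nothing and a clear signal within 1 stage, so no step is read from them.

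The upward genes were the more abundant group. Their mean over the 6 late libraries was 6.62 to 305 CPM, with a median of 31.8 CPM over the 24 genes, and their early mean was 3.38 to 195 CPM, with a median of 17.4 CPM. The late to early ratio was 1.55 to 2.74, with a median of 1.90, and reached 2 in 6 of the 24 genes and 3 in none. The downward genes were lower and changed by a larger ratio. Their late mean was 0.658 to 58.3 CPM, with a median of 3.30 CPM, and their early mean was 2.28 to 112 CPM, with a median of 6.38 CPM. The ratio of the early to the late mean was 1.64 to 4.27, with a median of 2.28. It reached 2 in 14 of the 19 genes and 3 in 3 of them.

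**Figure D1:**
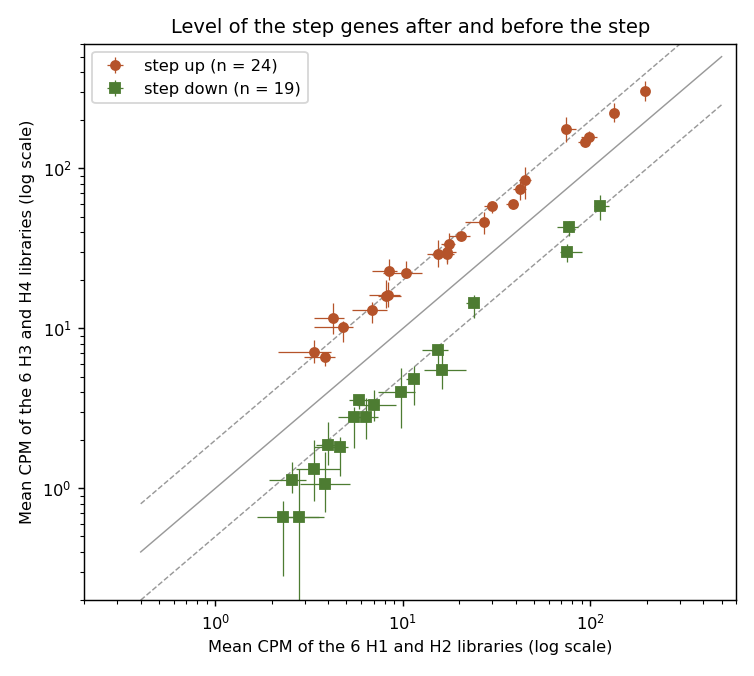
Mean CPM of the 6 H3 and H4 libraries (vertical, log scale) against the mean of the 6 H1 and H2 libraries (horizontal, log scale) for the 24 upward and 19 downward genes, with bars from the lowest to the highest library, a solid line at equal level and dashed lines at a 2-fold difference. The upward genes reach 305 CPM and the downward genes crowd at the low end, where the bar of 1 gene runs to a library at 0.

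The precision differed between the groups. Upward genes had 17 to 3768 counts per library, and the coefficient of variation (CV) among the replicates of a stage had a median of 6.45%. Downward genes had 0 to 1032 counts per library, a median CV of 12.7%, and 5 of the 19 had at least 1 library under 10 counts. A ratio of a downward gene of low level therefore rests on few counts, and the highest ratios came from such genes. The rule compares the outermost libraries, so a gene with more spread needs a larger ratio of means to pass it. The larger ratio of the downward set can thus be in part a property of the rule.

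Added over the 24 genes, the upward set made up 912 ± 10.2 CPM at H1, 933 ± 5.93 CPM at H2, 1486 ± 6.57 CPM at H3 and 1748 ± 47.4 CPM at H4 (SD, n = 3 each). The sum over the 19 downward genes was 389 ± 6.10 CPM at H1, 388 ± 5.73 CPM at H2, 209 ± 2.21 CPM at H3 and 168 ± 5.11 CPM at H4 (SD, n = 3 each). In both sums the early stages lay close together and the largest gap was at H3, and H4 lay further from the early stages than H3. Giving each gene the same weight, the median difference from the gene's own mean on the log2(CPM + 1) scale was -0.44, -0.37, 0.33 and 0.49 at H1, H2, H3 and H4 for the upward set. It was 0.43, 0.53, -0.36 and -0.56 for the downward set. In bulk flesh, fewer cells of a type and less RNA per cell cannot be told apart.

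**Figure D2:**
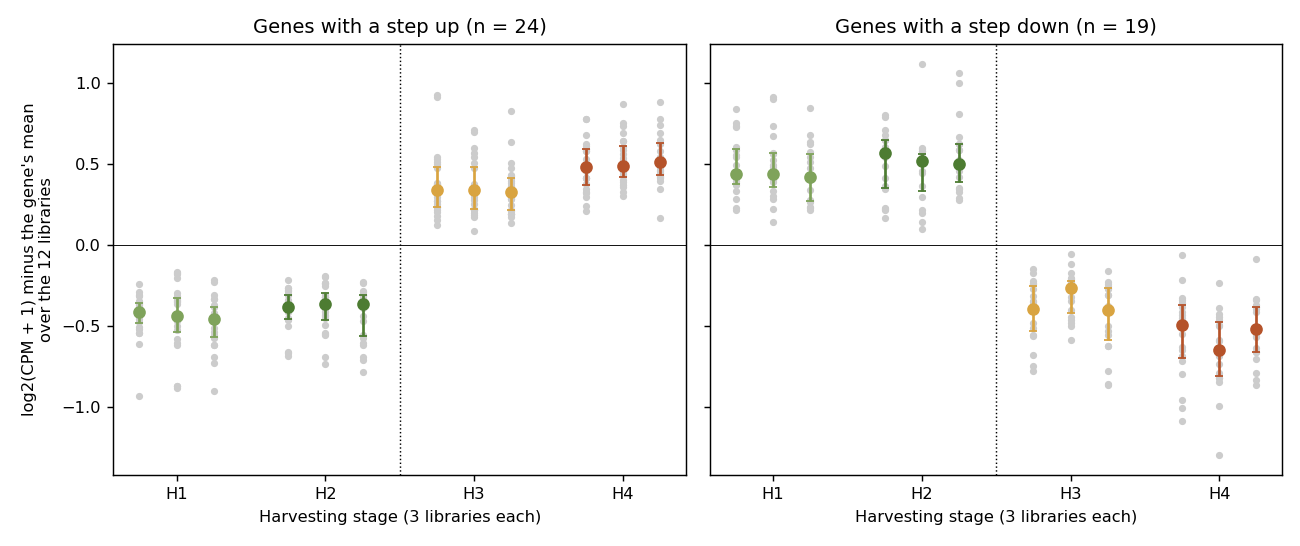
Difference of log2(CPM + 1) from the gene's mean over 12 libraries, for upward (left) and downward (right) genes, with the 3 libraries of each stage side by side. Grey points are single genes, coloured points the median over genes in a library with bars from the 25th to the 75th percentile, and the dotted line marks the step. The medians of the upward genes average -0.37 at H2 and 0.33 at H3, and those of the downward genes 0.53 at H2 and -0.36 at H3.

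Individual upward genes differed in how flat they were after the step. PCP033421 and PCP001362 had the highest ratios among the 24. PCP033421 had 6.81, 8.80 and 8.02 CPM in H1, 8.42, 9.26 and 9.15 CPM in H2, 27.1, 21.6 and 22.2 CPM in H3, and 24.6, 20.05 and 22.1 CPM in H4. Its lowest late library was 2.17 times its highest early one, the widest separation of the upward set, and the H3 and H4 libraries overlapped. PCP001362 had 4.63, 3.37 and 4.46 CPM in H1, 4.88, 4.50 and 3.68 CPM in H2, 14.3, 12.1 and 13.3 CPM in H3, and 11.1, 9.84 and 9.24 CPM in H4. Here the H4 libraries were all below the H3 libraries, while remaining above every early library.

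PCP000852 climbed on after the step. It had 83.7, 73.8 and 78.0 CPM in H1, 71.5, 70.0 and 70.0 CPM in H2, 147, 147 and 152 CPM in H3, and 196, 209 and 210 CPM in H4, a mean ratio of H4 to H3 of 1.38, close to the 1.4 that the rule allows. The most abundant of the set, PCP034107, had 196, 193 and 192 CPM in H1, 202, 194 and 192 CPM in H2, 265, 294 and 281 CPM in H3, and 287, 353 and 351 CPM in H4. Its 6 early libraries spanned under 10 CPM, and 1 of its H4 libraries lay within the range of H3.

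PCP035604 and PCP035605 were the only genes among the 43 with consecutive identifiers. PCP035604 had 31.0, 30.4 and 30.3 CPM in H1, 31.6, 28.0 and 27.0 CPM in H2, 60.4, 62.1 and 58.1 CPM in H3, and 52.4, 58.2 and 59.2 CPM in H4. PCP035605 had 9.64, 8.15 and 8.40 CPM in H1, 8.90, 6.56 and 8.08 CPM in H2, 14.8, 19.5 and 15.6 CPM in H3, and 13.6, 17.5 and 16.5 CPM in H4. Both had a late to early ratio of 1.96 at different levels. Reads shared between near-identical or overlapping genes could not be separated here, so whether they are independent signals was not tested.

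Among the downward genes, PCP028162 had the largest difference on the log2(CPM + 1) scale. It had 12.98, 14.3 and 17.7 CPM in H1, 16.0, 21.6 and 14.6 CPM in H2, 5.50, 6.37 and 7.01 CPM in H3, and 4.17, 4.22 and 5.58 CPM in H4. PCP024179 had the widest separation of the downward set, its lowest early library being 2.03 times its highest late one. It had 80.6, 90.2 and 69.5 CPM in H1, 74.7, 68.7 and 68.4 CPM in H2, 32.9, 33.7 and 31.9 CPM in H3, and 29.1, 26.3 and 26.1 CPM in H4. In both genes the early stages overlapped, and the H4 libraries of PCP024179 were all below those of H3.

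PCP000985 was the most abundant downward gene, with 105, 105 and 108 CPM in H1, 126, 116 and 110 CPM in H2, 67.8, 66.8 and 68.2 CPM in H3, and 50.8, 47.7 and 48.7 CPM in H4. Its H2 libraries were all above those of H1, and H4 averaged 0.726 of H3. PCP026164 had 78.0, 81.0 and 85.7 CPM in H1, 66.6, 78.1 and 72.1 CPM in H2, 47.2, 45.5 and 47.3 CPM in H3, and 41.6, 37.8 and 38.4 CPM in H4. With PCP024179, these were the 3 downward genes at 50 CPM or more before the step, against 9 upward genes at 50 CPM or more after it.

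The highest ratios of the downward set stood on few counts. PCP029022, with the highest ratio of 4.27, had 3.09, 3.59 and 2.42 CPM in H1, 2.93, 2.70 and 2.14 CPM in H2, 0.978, 0.637 and 0.594 CPM in H3, and 0.417, 0 and 1.32 CPM in H4. The library at 0 allows a level of up to 0.281 CPM. PCP018409 had 3.73, 3.48 and 3.44 CPM in H1, 4.39, 2.83 and 5.23 CPM in H2, 0.856, 1.70 and 0.712 CPM in H3, and 1.46, 0.937 and 0.711 CPM in H4, which are 6 to 16 counts per late library. In these genes the stages separated into early and late, but an order of H3 and H4 could not be read at this depth.

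**Figure D3:**
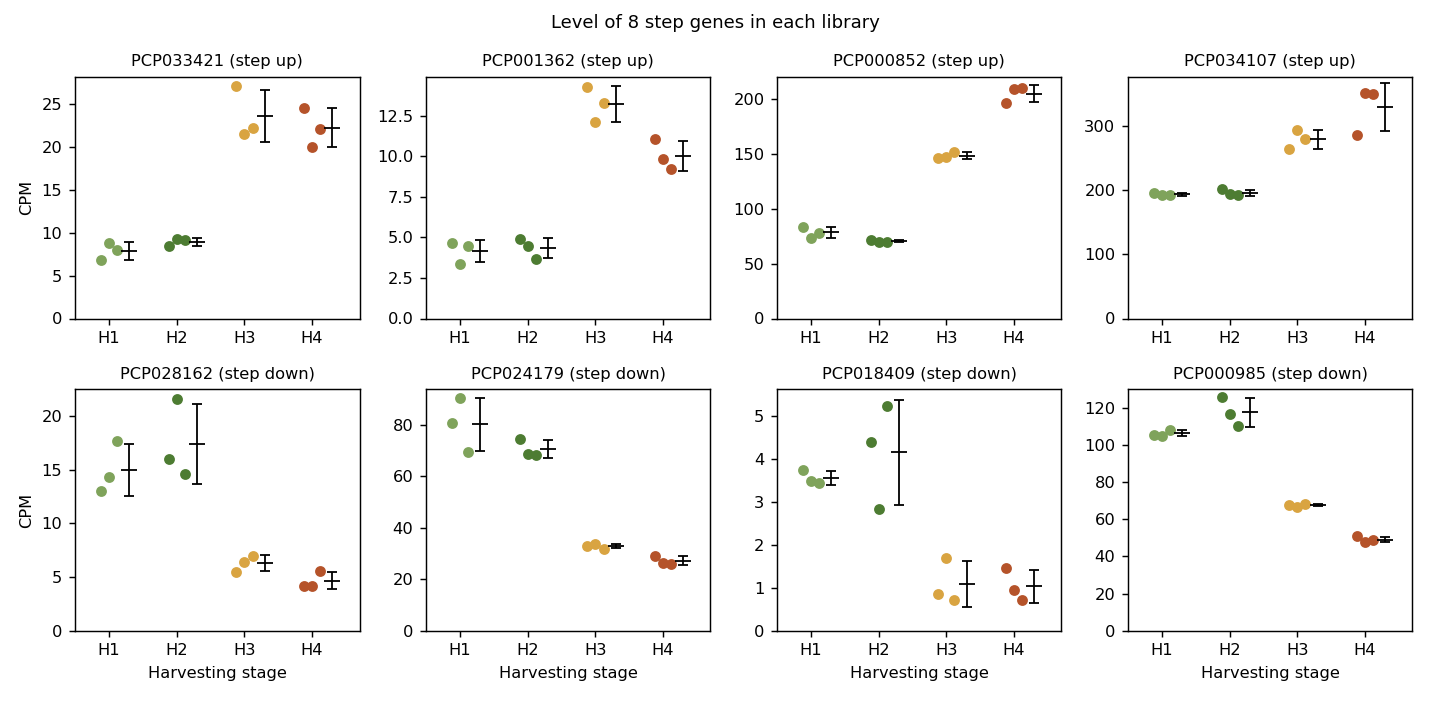
CPM in each of the 12 libraries by harvesting stage for 4 upward (top) and 4 downward (bottom) genes, with a black bar and whiskers for the mean and SD of 3 libraries, each panel on its own axis starting at 0. PCP033421 and PCP001362 do not go higher at H4 than at H3, PCP000852 and PCP034107 do on average, and the lower row shows PCP018409 at 0.711 to 1.70 CPM after the step.

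After the step, the stage means went on in the same direction in most genes. H4 averaged more than H3 in 19 of the 24 upward genes and less in 5, and the ratio of H4 to H3 was 0.759 to 1.39 with a median of 1.14. In the downward set H4 averaged less than H3 in 17 of 19 genes and more in 2, with a ratio of 0.722 to 1.21 and a median of 0.828. Single libraries overlapped between H3 and H4 in 13 upward and 15 downward genes. The H4 libraries were all above the H3 libraries in 9 upward genes and all below in 2, and all below in 4 downward genes, where 13.1% of all genes tested had all H4 libraries above and 27.9% below on the same CPM. Most of all genes tested fell under neither of these shares, so their H3 and H4 libraries overlapped too. Nothing is therefore read from the overlap in the step genes. Before the step the stage means were closer. The rule fixes this in part, since it allows 1.2-fold between H1 and H2 but 1.4-fold between H3 and H4. The median ratio of H2 to H1 was 1.06 for the upward and 1.05 for the downward set. H1 and H2 libraries overlapped in 20 upward and 18 downward genes. The share of all genes with such an overlap was not computed, so nothing is read from these counts.

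The scaling of the libraries moved these numbers slightly. The H4 libraries had scaling factors of 0.938 to 0.967 by the trimmed mean of M-values (TMM), against 1.003 to 1.031 in the others, so CPM from plain totals read slightly low at H4. With plain totals the median log2 change of all genes from H3 to H4 was -0.10, and with TMM it was -0.00. With TMM, 22 of 24 upward genes had a positive fitted change at H4 relative to H3, and 17 of 19 downward genes a negative one, and with plain totals these counts were 19 and 18. Of all 23155 genes tested, 11445 had a positive and 11697 a negative fitted change with TMM. No such tally over all genes is given here for plain totals or for the stage means.

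The fitted changes of edgeR's quasi-likelihood test, with Benjamini-Hochberg adjustment over 23155 genes and a threshold of 0.05, are given beside the share of all genes called. The rule used the same libraries and fixed these outcomes in large part, so the counts are no support for a step and are not compared with that share. At H3 relative to H2, 24 of 24 upward genes were called higher, where 2.98% of all genes were, and 17 of 19 downward genes were called lower, where 2.36% of all genes were. The median log2 change was 0.76 for the upward and -1.10 for the downward set, and within 0.01 of 0 for all genes. The 17 fell to 11 without H2 replicate 1, H2 replicate 3 or H3 replicate 3, to 10 without H3 replicate 1, and to 11 with a filter of 5 CPM that left fewer of these low genes in the test. With H3 and H4 set against H1 and H2, all 24 upward genes (background 14.8%) and all 19 downward genes (background 13.2%) were called, with median log2 changes of 0.95 and -1.15.

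At H2 relative to H1, none of the 43 genes was called in either direction by edgeR, where 3.94% of all genes were called higher and 3.17% lower, 7.11% in all, and the rule itself limits that change. At H4 relative to H3, 12 of 24 upward genes were called higher (background 11%), and 1 of 19 downward genes, PCP000985, was called lower (background 9.51%). Median log2 changes were 0.28 and -0.18.

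A step with 2 plateaus was the smaller part of the genes that separated the late from the early stages. For this tally the higher side had to average at least 2 CPM, with counts in all 6 of its libraries. On the upward side, 106 genes had all 6 late libraries at least 1.3 times the highest early library. Of them, 24 (22.6%) held both plateaus. Another 17 held the plateau of H1 and H2 only, 21 that of H3 and H4 only, and 44 held neither. Where the late plateau broke, in 61 genes, H4 lay further from the early stages than H3 in 58. Where the early plateau broke, in 65 genes, H2 lay between H1 and the late stages in 58. On the downward side, 108 genes separated, 19 of them (17.6%) held both plateaus, 34 only the early one, 20 only the late one and 35 neither. There the late plateau broke in 69 genes, and H4 lay further away in all 69. The early plateau broke in 55 genes, and H2 lay between H1 and the late stages in 48. The demand for separation treats the stages of a side alike, and leaves out genes where either lay near the other side. These directions therefore describe only the genes that passed it. Without demanding a ratio of 1.3 or 2 CPM, 3.75% of the genes tested had all 6 late libraries above all 6 early ones. In 3.93% all 6 late libraries were below all 6 early ones.

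**Figure D4:**
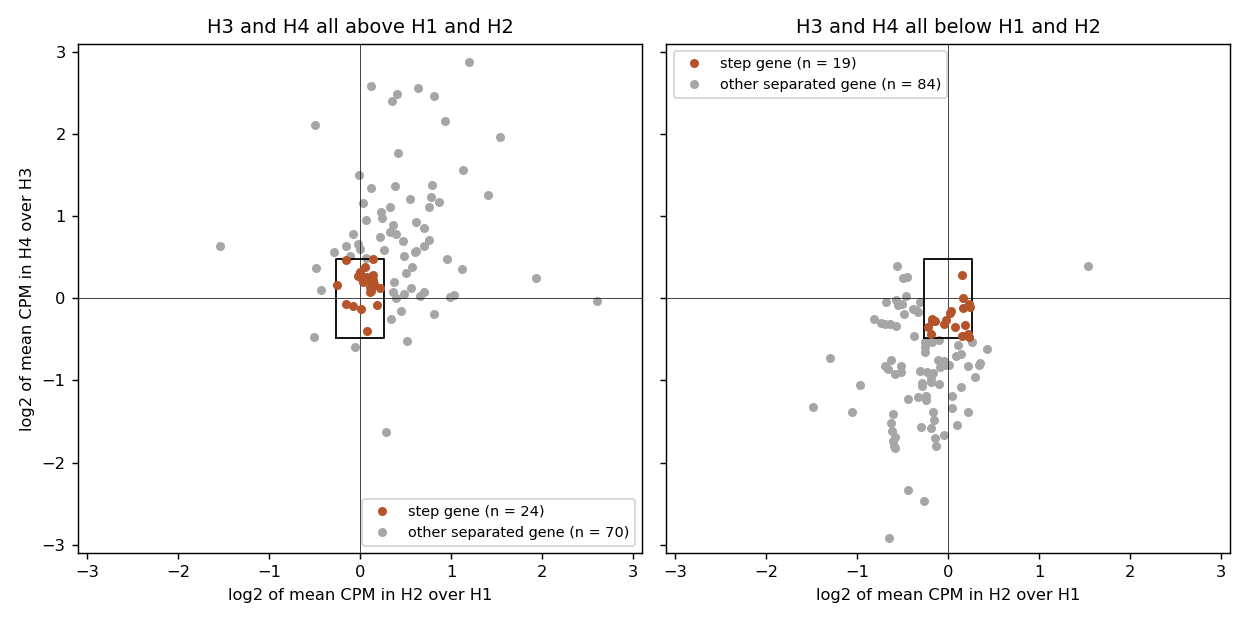
Log2 ratio of the mean CPM of H4 to H3 (vertical) against that of H2 to H1 (horizontal) for genes whose late libraries were all above (left) or all below (right) the early ones by 1.3-fold, with step genes in red, the others in grey and a box at the 1.2-fold and 1.4-fold limits of the rule. The higher side of each gene averaged at least 2 CPM. Of the other separated genes, 12 upward and 5 downward ones with a ratio beyond the axes or a mean of 0 are not drawn. The grey points of the left panel extend mostly upwards and to the right of the box. Those of the right panel extend mostly downwards and to the left.

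The edge of the rule was crowded. Of the 24 upward genes, 13 had a separation between 1.3 and 1.4, and 27 more genes that met the other conditions had one between 1.2 and 1.3. For the downward set these numbers were 8 and 23. The 2 upward genes just inside had separations of 1.303 and 1.303 and the 2 just outside 1.297 and 1.282. On the downward side the values were 1.313 and 1.314 inside and 1.299 and 1.291 outside. The size of the set is thus a property of the limit chosen, and leaving out H3 replicate 2 brought the downward set, zero-count genes included, to 35 genes in place of 23.

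None of the 41 ripening genes that the study names was a step gene. The study picked these genes from the same libraries, so their directions are not independent of it. Of the 37 that could be tested at H3 relative to H2, 6 were called higher and 2 lower, where 5.34% of all genes were called in either direction, and without H3 replicate 1 the total was 5. Those called higher were an ERF (ethylene response factor), PG (polygalacturonase, which degrades pectin), AAT (alcohol acyltransferase, which forms volatile esters) and 3 auxin-related genes, and those called lower were ERF2 and a COBRA-like gene. Their log2 changes were 1.23 for the ERF PCP011831, 3.104 for PG PCP006771, 0.72 for AAT PCP024687, 3.51 for the auxin responsive protein PCP012330, 0.39 for the IAA-like factor PCP012166 and -3.13 for ERF2 PCP002056. The change of PCP012330 rests on few counts, 0, 2 and 0 at H2 and 14, 7 and 7 at H3 (SE 0.82, approximate). The calls of PCP011831, PCP012330 and PCP024687 were lost without H3 replicate 1, with adjusted p of 0.101, 0.097 and 0.065 by edgeR, and also when some other single libraries were left out. By list, 0 of 4 tested ethylene synthesis genes, 2 of 6 of ethylene perception and response, 3 of 9 auxin genes, 2 of 8 cell wall genes, 1 of 4 volatile genes and 0 of 6 other transcription factors were called.

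Of the 41 genes, 6 held both plateaus, 4 separated upwards and 2 downwards, and none did both. PG averaged 1.19 CPM at H1, 10.01 CPM at H2, 86.4 CPM at H3 and 801 CPM at H4, so it separated late from early but held no plateau. The squamosa binding protein gene PCP036084 separated downwards by 1.34 and held the plateau of H1 and H2, but its H3 mean was 1.44 times its H4 mean, past the limit of 1.4. Its late libraries had 7.09, 6.79 and 7.24 CPM in H3 and 0.939, 6.18 and 7.51 CPM in H4, so 1 low library set the H4 mean. Among the named genes that held both plateaus, the Aux/IAA gene PCP003908, of a family of repressors of auxin-responsive transcription, had the widest upward separation. It had 52.8, 51.4 and 60.1 CPM in H1, 56.0, 58.4 and 52.0 CPM in H2, 81.4, 72.7 and 74.9 CPM in H3, and 96.8, 92.0 and 95.6 CPM in H4. Its late libraries were all above its early ones, by a separation of 1.21. At H3 relative to H2 its log2 change was 0.46 ± 0.07 (SE, approximate, adjusted p = 0.0021 by edgeR). It rose further at H4 relative to H3, by 0.40 ± 0.07 (SE, approximate, adjusted p = 0.0012 by edgeR). Its late plateau thus held only within the 1.4-fold limit and was not level. The COBRA-like gene PCP011926, of a family that acts in cellulose deposition, had the widest downward separation among those with both plateaus, at 1.197. All its late libraries were below the early ones. Its log2 change at H3 relative to H2 was -0.36 ± 0.06 (SE, approximate, adjusted p = 0.0055 by edgeR). It also fell further at H4 relative to H3, by a log2 change of -0.27 ± 0.06 (SE, approximate, adjusted p = 0.0098 by edgeR).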

How the data were processed

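RNA of the flesh at 4 harvesting stages was sequenced in 12 libraries by the study. The authors aligned reads with HISAT2 to a Pyrus communis genome, quantified genes with StringTie and tested with DESeq2 (versions not given in the sources used here). The deposited table is named as FPKM, but its 12 library columns hold whole-number counts per gene with differing totals, and were used as counts. Its 4 stage columns equal the means of the libraries and were not used. The labels describe a non-directional library, so overlapping or antisense genes and near-identical copies cannot be separated. The labels and the study's methods name different library kits and sequencers.

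CPM were counts over the column sum. Genes with at least 1 CPM in 3 libraries (23155) were fitted with edgeR 4.0.16 (R 4.3.3; TMM, quasi-likelihood test, all 12 libraries, 1 mean per stage). All 43 genes with a step in every library passed this filter. Standard errors were derived from the F statistics and are approximate. The biological coefficient of variation was 13.0%. The alternatives were DESeq2 1.42.0, other scalings, filters and rule limits, a replicate block, and each library left out in turn. The scripts were tested on simulated data. Replicate pairs of a stage differed beyond sampling noise.

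The rule, the members and the lists were chosen with earlier results of these data known. Unnamed genes to be printed were the 2 in each direction with the largest difference of mean log2(CPM + 1) between late and early stages (PCP019391, PCP033421, PCP038104 and PCP028162). Those of the 41 study-named genes called at H3 against H2 were to be named as well. The other identifiers in the text were chosen after their values were seen. PCP identifiers matched 0 entries of the RefSeq gene table (assembly drPyrComm1.1), and the RefSeq transcript accessions that the study lists for many of them were not in it either. Tissue markers were not checked and no sequence is shown.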

Additional observations from a re-analysis of the deposited data

How the results depend on the processing

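The number of step genes followed the limits of the rule. Of 25 upward and 23 downward genes as the rule is written, a separation of 1.2 gave 52 and 46, and one of 1.5 gave 8 and 13. Limiting both plateaus to 1.2-fold left 12 downward genes, and a minimum of 5 CPM left 13. Leaving out 1 library gave 24 to 37 upward and 23 to 35 downward genes, the highest downward number without H3 replicate 2, and these shared 23 to 25 of the 25 upward and 15 to 23 of the 23 downward genes. The lowest downward overlap, 15 of 23, was without H2 replicate 2. CPM on TMM library sizes gave 22 upward genes, 20 of them shared, and 28 downward genes, 21 of them shared. Demanding counts in every library of the higher side, chosen after seeing the data, gave 24 and 19.

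Among these 24 and 19 genes, the upward genes called at H3 against H2 stayed at 24 under DESeq2, other filters and scalings, and were 23 to 24 with 1 library left out. The downward genes called fell to 11 of 17 with a filter of 5 CPM, and were 10 to 17 with 1 library left out. For the late against the early stages, 24 upward genes were called throughout, and of the 19 downward genes 12 were called with the 5 CPM filter, which removes the low genes. With 1 library left out, these counts were 24 and 19, which the choice of the genes largely fixes. At H4 against H3, settings added after seeing the data gave 8 upward genes with plain totals, 11 with DESeq2 and 9 to 12 with 1 library left out, and 2 downward genes with plain totals in place of 1. All genes called at H3 against H2 numbered 1236 and were 687 to 1507 with 1 library left out, and the study-named genes numbered 8 and were 5 to 10. No result reversed.

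The main fit did not pair samples by replicate number, and whether these numbers pair them was not settled. Correlations of same-numbered deviations were -0.041 to 0.243, and 4 of 18 were above 0.1. With the replicate block, 24 upward and 13 downward genes, 8 study-named genes and 1133 genes in all were called at H3 against H2, and 24 and 19 for late against early.

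Depth limits the downward genes, of which 12 of 19 averaged under 10 CPM before the step.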

Other observations

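The 5 genes that met the rule only through zeros belong to a wider group. In 457 genes, 1.48% of the 30839 with any count, 1 stage held both a library at 0 and a library with 30 counts or more, and none of the 43 step genes did so. PCP019391 had 155 and 159 counts in the 2 libraries where it was present. PCP038104 had 98 to 118 counts in 4 early libraries. For PCP019391, 4 other genes were present exactly where it was absent, and the most even sum was with PCP038012, at 9.18 to 19.0 CPM over the 12 libraries, a CV of 17.1%. For PCP041461, 3 genes had the opposite pattern, and the sum with PCP012331 was 8.17 to 14.1 CPM, a CV of 14.1%. PCP038104 had no such counterpart. These partners were picked by their values, so the evenness of a sum is a description, and whether the counts of 1 locus were split between identifiers was not tested.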
